A study of Mus musculus with 24 samples.

Results

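Macrophages derived from bone marrow of Ltb4r2-/- mice were compared with those of WT mice in the M1-like state, across every gene with enough counts to test. The comparison held 8 of the 24 libraries of the series, 4 labelled Ltb4r2-/- and 4 labelled WT, each made from an mRNA library of one biological replicate. All 8 cultures were grown for 7 days in 10 ng/ml M-CSF, the growth factor that turns marrow precursors into macrophages. They then received LPS (10 ng/ml) together with IFN-γ (25 ng/ml), and RNA was taken after 16 h. The mice were C57BL/6J. Knockout was global and not limited to macrophages, and the WT mice were littermates. Age and sex of the marrow donors are not given in the sources used here.

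Ltb4r2 encodes BLT2, a G protein-coupled receptor that binds leukotriene B4 with low affinity and also other lipids such as 12-hydroxyheptadecatrienoic acid. Its paralog Ltb4r1 encodes BLT1, the high-affinity leukotriene B4 receptor, and both receptors draw leukocytes toward sites of inflammation. LPS acts through Toll-like receptor 4 and NF-kB, and together with IFN-γ it drives macrophages to make nitric oxide, inflammatory cytokines and chemokines. The question of the comparison is which transcripts differ when BLT2 is missing in cells that have already been driven into that state.

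What a value under a gene's name measures depends on the strand that was counted, which is not given in the sources used here, for a kit that marks strand. An exon overlap with a gene on the opposite strand was found in 24.1% of the genes placed on the annotation, and these held 90.7% of the counts of placed genes in the M1 libraries. In 110 pairs of an antisense RNA and a coding gene whose exons it overlaps by 100 bp or more, the antisense RNA had more counts in 91 (82.7%), and the 8 libraries held 549032 counts for the antisense RNAs against 30649 for the coding genes. Gm15441 had 68717 counts and Txnip, the coding gene it overlaps, had 45. Xist, the RNA that coats the inactive X chromosome, had 0 to 10 counts in the 12 libraries of the series in which its antisense partner Tsix had 1191 to 2649. Counts taken on the strand opposite to the transcripts give this pattern. A value given below is therefore the count listed under that name, and cannot be read as the level of that gene's mRNA. For a gene with a partner it may be the partner's reads, and for a gene with none it may be reads of the other strand. Roles are given for the named gene as background only, and a partner on the opposite strand is named with its overlap.

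Libraries held 465765 to 729580 counts, with 5933 to 7121 genes detected in each, and 1963 genes passed the filter on low counts, with a median of 38.5 counts per library. Of 26 macrophage identity genes 16 were tested, and Adgre1, the F4/80 antigen, had 44.9 to 84.6 CPM, which is counts scaled to library size, in Ltb4r2-/- and 72.0 to 97.1 CPM in WT. The summed level of these 26 genes was 1078 to 1478 CPM in Ltb4r2-/- and 1330 to 1771 CPM in WT. Marker lists of erythroid cells, stromal cells, B cells, neutrophils, T and NK cells, and mast cells with basophils had no tested member, and none of them summed to more than 11 counts in a library. If the opposite strand was counted, such low sums say nothing of whether those cells were present. In the dendritic cell list Xcr1 alone was tested. Ltb4r2-/- replicate 3 stood apart from the other libraries. In 51 of 1372 genes with a mean of 20 counts or more its value was over 1.5 times the next highest library, against 1 to 8 genes for each of the other 7 libraries. WT replicate 2 came second, with 8 such genes, Lyz2, Apoe and Ctsa among them. Results that rest on either library are given with and without it.

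The deleted gene could not be used to check the labels. Ltb4r2 (chr14:55761428-55765138 of mm10, plus strand) had 0 counts in all 4 WT libraries, and 0, 0, 2 and 0 counts in Ltb4r2-/- replicates 1 to 4. A count of 0 allows up to 3 counts, which is 4.16 to 6.63 CPM in these libraries, so that a low level in WT would not have been detectable at this depth, and if the opposite strand was counted a 0 says nothing of the transcript at any depth. Ltb4r1, which lies beside it, had 0 counts in all 8 libraries. The other genes of the leukotriene and prostanoid list were likewise scarce, and 1 of 20 was tested, Ptgs2, the inducible cyclooxygenase. It had 95.0 to 134 CPM in Ltb4r2-/- and 69.3 to 110 CPM in WT, a log2 fold change of 0.30 (SE 0.21, where SE is the standard error on the log2 scale, unadjusted p = 0.163 by the quasi-likelihood test of edgeR).

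Across the genome 1 gene, Tep1, passed an adjusted p of 0.05 (quasi-likelihood test of edgeR, p adjusted by the Benjamini-Hochberg method), which is 0.0509% of the 1963 genes tested. DESeq2 likewise gave 1 gene. Without the filter on low counts edgeR gave 23, Tep1, Nop9, Parp2, Zfc3h1, Ifit2, Apoe, N4bp1, Pitpna and Basp1 among them. Some of these calls leaned on 1 library. In the filtered fit the log2 fold changes of N4bp1, Pitpna and Basp1 were 0.33, 0.30 and 0.21 without Ltb4r2-/- replicate 3. That of Apoe was -0.58 without WT replicate 2. At an unadjusted p under 0.05, the threshold used in the study, 147 genes (7.49%) differed, 96 of them higher in Ltb4r2-/- (4.89%) and 51 lower (2.6%). The 4 libraries of one genotype lay entirely above the 4 of the other in 74 genes (3.77%), 37 in each direction (1.88% each). Log2 fold changes were negative in 983 of the 1963 genes (50.1%), and 31 genes differed by more than 1 on the log2 scale, of which 4 had a mean of at least 50 counts. The median SE was 0.14 in the 849 genes with a mean of at least 50 counts and 0.37 in those below. In bulk RNA of this kind, fewer cells of a type and less of a transcript per cell cannot be told apart.

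**Figure D1:**
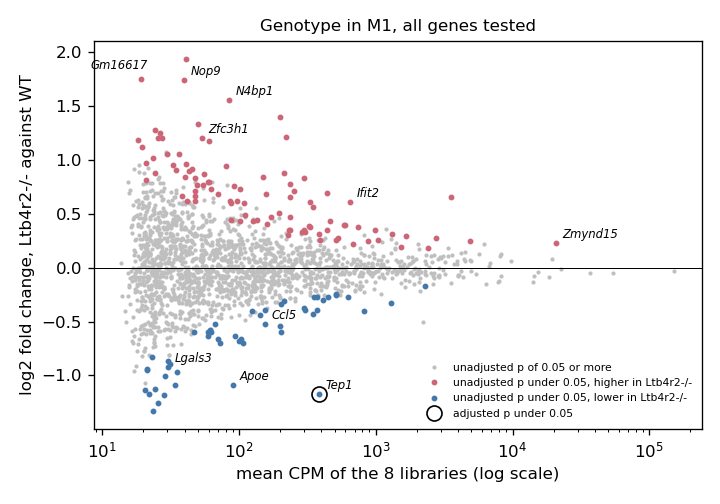
Log2 fold change of Ltb4r2-/- against WT on the y axis is plotted against the mean CPM of the 8 M1 libraries on a logarithmic x axis, 1 point per gene tested. Red and blue points are the 96 higher and 51 lower genes at an unadjusted p under 0.05, and the black ring marks Tep1, the gene past the adjusted threshold.

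Tep1 encodes telomerase-associated protein 1, an RNA-binding component of telomerase and of vault particles, and lies at chr14:50824059-50870560 (minus strand), 4.89 Mb from Ltb4r2. Its counts were 116, 121, 123 and 133 in the Ltb4r2-/- libraries and 292, 405, 255 and 311 in the WT libraries. On the CPM scale the Ltb4r2-/- values were 218, 208, 230 and 294 and the WT values 479, 562, 510 and 583, so the groups were far apart and replicates within a group were close. The mean fell from 533 ± 47.4 CPM in WT to 238 ± 38.6 CPM in Ltb4r2-/- (SD, n = 4), a log2 fold change of -1.17 (SE 0.13, adjusted p = 9.06e-05, edgeR). Leaving out each library in turn gave -1.30 to -1.12. Gm26782 overlaps its exons on the opposite strand by 144 bp, so these counts may not be those of Tep1 mRNA.

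Tep1 was also lower in the other states, and by a different amount in one of them. In unpolarized M0 cells it had a mean of 409 CPM in Ltb4r2-/- and 2524 CPM in WT, a log2 fold change of -2.63 (SE 0.09), and in M2 cells, treated with IL-4, 452 against 946 CPM (-1.07, SE 0.13). The difference between genotypes was smaller in M1 than in M0 by 1.43 on the log2 scale (SE 0.18, adjusted p = 7.41e-06, edgeR interaction term over 24 libraries). That fit takes the libraries as independent, but Tsix was detected in all 3 states or in none for each of the 8 combinations of genotype and replicate number, so the states may share animals. With genotype and replicate number as a unit across states the value was 1.43 (adjusted p = 6.18e-06). Between M1 and M2 that difference was -0.11 (SE 0.18, adjusted p = 0.974). The WT level of Tep1 was itself 2524 CPM in M0 and 533 CPM in M1, while the Ltb4r2-/- levels were 409 and 238 CPM, each on the scale of its own state.

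The neighbours of Ltb4r2 on chromosome 14 are described separately, since Tep1 is one of them. Within 10 Mb of it 36 genes were tested, and 10 had an unadjusted p under 0.05 (27.8%, against 7.49% of all genes tested and 7.11% of the genes outside that stretch). Of these, 4 were higher and 6 lower in Ltb4r2-/-. In 8 genes (22.2%, against 3.77% of all genes tested) the groups did not overlap. Shares were 9 of 28 genes within 5 Mb (32.1%) and 11 of 46 within 20 Mb (23.9%), and on the rest of chromosome 14 they were 2 of 40 genes (5%). Other than Tep1, none of the 36 passed the adjusted threshold. The median log2 fold change of the 36 genes was -0.05, since members lay on both sides, and the 26 others ran from -0.91 (Pnp, a purine salvage enzyme, overlapping Gm38316 by 356 bp) to 0.25 (Trim13).

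**Figure D2:**
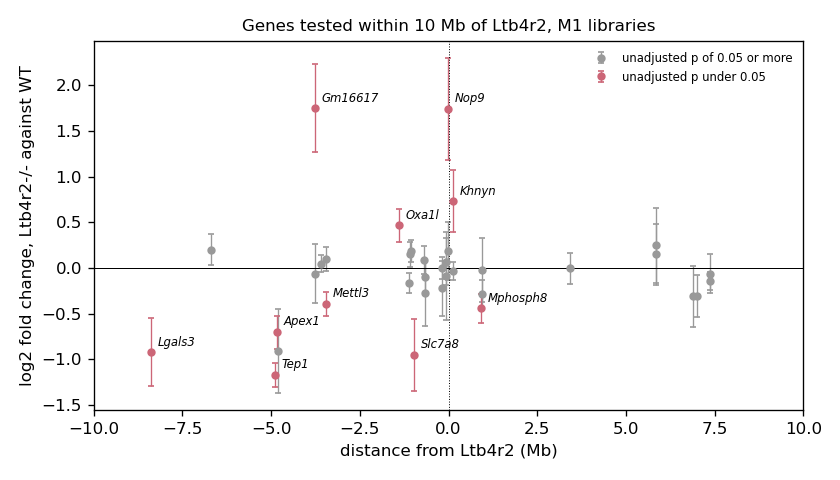
Log2 fold change of Ltb4r2-/- against WT in M1 (y axis, with bars of 1 SE) is plotted against distance from Ltb4r2 in Mb (x axis) for the 36 genes tested within 10 Mb. The 10 named genes in red, with an unadjusted p under 0.05, lie on both sides of 0 and, apart from Lgals3, within 5 Mb.

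Of the neighbours with roles in DNA repair, Parp2 and Apex1 lie on either side of Tep1. Parp2, a poly(ADP-ribose) polymerase activated by DNA breaks (chr14:50807841-50821301, plus strand), had too few counts for the fit. Its counts were 8, 16, 16 and 7 in Ltb4r2-/- and 0, 0, 0 and 2 in WT, so that nearly all of its reads came from the Ltb4r2-/- libraries (22.0 ± 7.84 against 0.937 ± 1.87 CPM, SD, n = 4). Parp2 is described because its groups were separate. Its calls in M1 without a filter and with all 24 libraries are therefore no separate support. The WT count in replicate 4 is below the 3 counts that a count of 0 allows. In the interaction fit the Parp2 difference was larger in M1 than in M0 by 3.66 on the log2 scale (SE 0.88, adjusted p = 0.316, edgeR). That term uses the same M1 counts for which Parp2 was chosen, so it is no separate support. Without WT replicate 4, which held the only WT counts, the fitted Parp2 term was 6.17, a value that depends on how counts of 0 are treated. Its mean levels were 40.5 against 24.3 CPM in M0 and 209 against 39.9 CPM in M2, higher in Ltb4r2-/- in both. Apex1, the main endonuclease of base excision repair (chr14:50924968-50927139, plus strand), had 82.7, 84.4, 84.1 and 77.3 CPM in Ltb4r2-/- and 117, 150, 120 and 146 CPM in WT. These groups did not overlap, and the log2 fold change was -0.70 (SE 0.18, adjusted p = 0.463, edgeR). Tmem55b overlaps Apex1 on the opposite strand by 877 bp and had 1 to 5 counts per library. In M0 and M2 the log2 fold changes of Apex1 were -0.35 (SE 0.14) and -0.30 (SE 0.15).

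The neighbours Slc7a7 and Slc7a8, solute carriers of the same family, had lower counts in Ltb4r2-/-. Both were named for their values, so nothing follows for the family as a whole. Slc7a7 (chr14:54369442-54417780, minus strand) encodes the light chain of a transporter of cationic amino acids, among them arginine, the substrate of nitric oxide synthase. It was outside the fit, with 3, 4, 2 and 3 counts in Ltb4r2-/- and 9, 24, 11 and 10 in WT, or 5.72 ± 1.43 against 22.2 ± 7.95 CPM (SD, n = 4), and was chosen for that separation, so no test is given. Its mean levels were 43.2 against 199 CPM in M0 and 36.1 against 173 CPM in M2. Slc7a8, a light chain for neutral amino acids (chr14:54722209-54781946, minus strand, no opposite-strand partner), had 8, 6, 8 and 8 counts in Ltb4r2-/- and 17, 23, 10 and 17 in WT. All 4 Ltb4r2-/- libraries were below all WT libraries, with 14.5 ± 3.05 against 27.9 ± 5.6 CPM (log2 fold change -0.95, SE 0.39, adjusted p = 0.625, edgeR). Oxa1l, which inserts proteins into the inner mitochondrial membrane (chr14:54360834-54369673, plus strand), overlaps Slc7a7 tail to tail by 232 bp of exon and was higher, with 331, 236, 243 and 296 CPM against 263, 225, 146 and 159 CPM. The groups overlapped for Oxa1l in M1 (log2 fold change 0.47, SE 0.18, unadjusted p = 0.0176, adjusted p = 0.577, edgeR), and its fold changes were larger in M0 (1.26, SE 0.19) and M2 (0.88, SE 0.17). The Oxa1l interaction of M1 against M0 was -0.82 (SE 0.28, unadjusted p = 0.00683, adjusted p = 0.992).

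Nop9, a nucleolar protein needed for ribosomal RNA maturation, lies 0.01 Mb from Ltb4r2 (chr14:55745693-55755500, plus strand) and had 22, 47, 39 and 22 counts in Ltb4r2-/- against 21, 4, 17 and 0 in WT. The WT libraries differed widely among themselves, yet the groups did not overlap on the CPM scale, with 41.4 to 80.9 against 0 to 34.5 CPM (log2 fold change 1.74, SE 0.56, adjusted p = 0.463, edgeR). Cideb, a lipid droplet protein gene that overlaps it on the opposite strand by 1136 bp, had a log2 fold change of 0.19 (SE 0.32). Khnyn, which encodes a protein known in human cells as a nuclease partner of the antiviral protein ZAP (chr14:55884947-55898775, plus strand), had 79.0, 70.6, 41.1 and 122 CPM in Ltb4r2-/- and 77.2, 37.4, 30.0 and 41.2 CPM in WT. Those groups overlapped, with a log2 fold change of 0.73 (SE 0.34, unadjusted p = 0.0469, edgeR), and 0.43 without Ltb4r2-/- replicate 4. Sdr39u1 overlaps it on the opposite strand by 1195 bp, at 2013 against 2063 CPM. Mettl3, the catalytic subunit of the RNA m6A methyltransferase (chr14:52294841-52305128, minus strand), had 297, 250, 213 and 298 CPM in Ltb4r2-/- and 386, 352, 328 and 317 CPM in WT. Its groups did not overlap (log2 fold change -0.39, SE 0.13, adjusted p = 0.484, edgeR), while Tox4, which overlaps it on the opposite strand by 933 bp, had a log2 fold change of 0.10 (SE 0.13). Mphosph8, a chromodomain protein of the HUSH silencing complex (chr14:56668248-56697430, plus strand), was separated as well, with 107 to 138 against 152 to 174 CPM (-0.44, SE 0.16, adjusted p = 0.543, edgeR). It overlaps Gm16973 on the opposite strand by 384 bp, which itself had -0.28 (SE 0.15). Gm16617, an antisense transcript within Arhgef40 (chr14:51986425-51988827, minus strand), had 13, 28, 14 and 9 counts in Ltb4r2-/- and 4, 10, 5 and 2 in WT. Counts were low, but every Ltb4r2-/- library was above every WT library on the CPM scale (log2 fold change 1.75, SE 0.48, adjusted p = 0.463, edgeR), and the M0 and M2 fold changes were 1.74 (SE 0.49) and 2.37 (SE 0.36). Arhgef40 itself had a log2 fold change of -0.06 (SE 0.32).

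**Figure D3:**
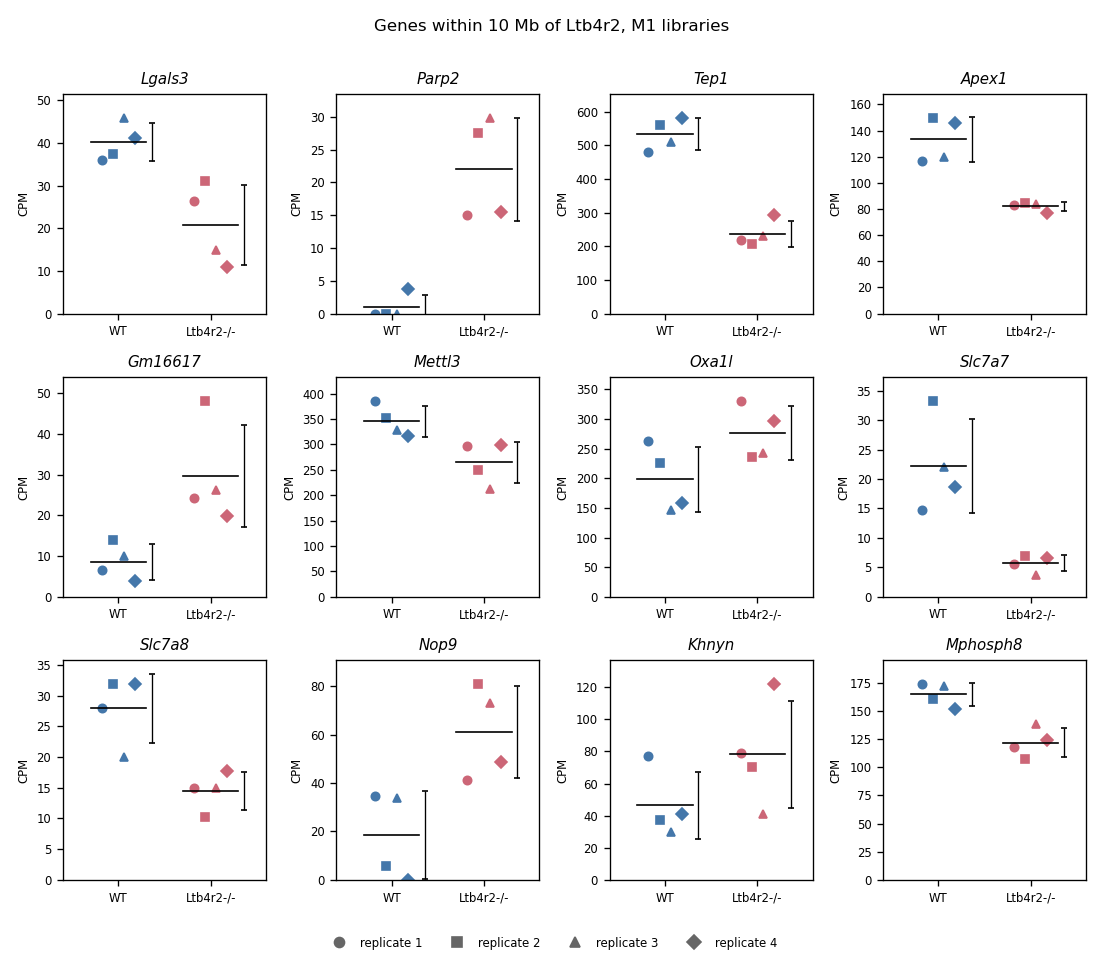
CPM in each M1 library (y axes from 0) is shown for the 12 genes within 10 Mb of Ltb4r2 that are described in the text, WT in blue and Ltb4r2-/- in red, with a marker shape per replicate number, a line at the group mean and a bar of 1 SD beside it, cut at 0. Parp2, Gm16617 and Nop9 are higher and Lgals3, Tep1, Apex1, Mettl3, Slc7a7, Slc7a8 and Mphosph8 lower without overlap, while Oxa1l and Khnyn overlap.

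Ccl5 and Lgals3 are the genes the study singled out as mediators of macrophage migration, among those significantly lower in the same M1 sequencing. The p-values given below for both genes come from those same counts, so they are no separate support. The study also reported both as lower in Ltb4r2-/- M1 cells by a separate qRT-PCR, which does not rest on these counts. Ccl5, the chemokine RANTES (chr11:83525778-83530518, minus strand), had 52, 98, 70 and 51 counts in Ltb4r2-/- and 103, 152, 65 and 119 in WT. On the CPM scale these were 97.8, 169, 131 and 113 against 169, 211, 130 and 223, so WT replicate 3 lay within the range of the Ltb4r2-/- libraries and WT replicate 1 was barely above the highest of them. The means were 128 ± 30.6 and 183 ± 42.4 CPM (SD, n = 4), a log2 fold change of -0.52 (SE 0.20, unadjusted p = 0.0188, adjusted p = 0.585, edgeR, exact two-sided permutation p = 0.114). Leaving out single libraries gave -0.70 to -0.42. Ccl5 had a mean of 0 CPM in M0 and in M2 in both genotypes.

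Lgals3, which encodes the β-galactoside-binding lectin galectin-3, lies 8.38 Mb from Ltb4r2 (chr14:47367751-47386160, plus strand), at the far edge of the stretch described above. Its counts were 14, 18, 8 and 5 in Ltb4r2-/- and 22, 27, 23 and 22 in WT, or 20.8 ± 9.37 against 40.2 ± 4.44 CPM (SD, n = 4). Every WT library was above every Ltb4r2-/- library, and the log2 fold change was -0.92 (SE 0.37, unadjusted p = 0.0229, adjusted p = 0.616, edgeR, exact two-sided permutation p = 0.0286, the lowest possible with 4 against 4). In M0 it had 23.1 against 32.3 CPM (-0.46, SE 0.36) and in M2 104 against 89.6 CPM (0.21, SE 0.27). The interaction of M1 against M2 was -1.12 (SE 0.43, unadjusted p = 0.0137, adjusted p = 0.948). Neither Lgals3 nor Ccl5 has an exon overlap on the opposite strand.

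The promoters of Lgals3 and Parp2 are shown because both genes separated the genotypes in M1, in opposite directions, lie on the same stretch of chromosome 14 and have no antisense partner. Slc7a8 meets the same conditions as Lgals3 and is not shown. Sequences are from RefSeq (GRCm38.p6), 250 bases before to 50 after the start, both on the plus strand, at chr14:47373610-47373909 and chr14:50807666-50807965. Capitals mark matches on either strand to a loose NF-kB-like motif, GGGANNNNCC, which occurs in 20.7% of 32851 promoters of that length.
Lgals3: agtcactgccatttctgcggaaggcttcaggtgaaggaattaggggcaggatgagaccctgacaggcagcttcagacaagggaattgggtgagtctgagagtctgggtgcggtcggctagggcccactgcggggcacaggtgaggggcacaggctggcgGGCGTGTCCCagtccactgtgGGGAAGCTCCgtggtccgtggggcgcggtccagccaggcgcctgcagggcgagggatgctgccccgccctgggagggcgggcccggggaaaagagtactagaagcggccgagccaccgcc
Parp2: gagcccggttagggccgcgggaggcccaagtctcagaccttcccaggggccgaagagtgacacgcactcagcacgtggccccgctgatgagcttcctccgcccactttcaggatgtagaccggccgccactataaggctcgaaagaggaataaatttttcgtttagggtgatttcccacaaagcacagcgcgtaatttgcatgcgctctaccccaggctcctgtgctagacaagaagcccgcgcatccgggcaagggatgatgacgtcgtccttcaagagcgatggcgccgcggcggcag
The Lgals3 window holds one match on the plus strand at bases 181 to 190 and one on the minus strand at bases 160 to 169, counted from the first base shown. The letters of the motif are not in the Parp2 window. Whether the motif bears on the counts of either gene was not tested.

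Among genes higher in Ltb4r2-/- without overlap of the groups, Zfc3h1 had the smallest p. Zfc3h1 links the nuclear exosome to polyadenylated RNA for decay (chr10:115384959-115432772, plus strand, no opposite-strand partner) and had 52.6, 75.8, 97.2 and 72.9 CPM in Ltb4r2-/- against 34.5, 36.0, 28.0 and 30.0 CPM in WT. The WT libraries were tight and the lowest Ltb4r2-/- library was replicate 1 (log2 fold change 1.20, SE 0.27, unadjusted p = 3.88e-04, adjusted p = 0.381, edgeR). Leaving out single libraries kept it at 1.04 to 1.33. Atf5, a transcription factor of the mitochondrial unfolded protein response, had 205, 215, 245 and 265 CPM against 159, 177, 176 and 137 CPM (0.51, SE 0.15, adjusted p = 0.463). Atf5 overlaps Il4i1 by 82 bp on the opposite strand, whose counts were 0 to 9 per library. Tbcd, a folding cofactor of β-tubulin, had 62.0 to 87.8 against 35.6 to 48.5 CPM (0.80, SE 0.25), and overlaps B3gntl1 by 237 bp on the opposite strand. Pcdh7, a protocadherin, had 12 to 28 against 7 to 11 counts (1.20, SE 0.39) and overlaps 4932441J04Rik by 2235 bp. The lincRNA 5031425E22Rik had 62.0 to 97.2 against 31.9 to 58.0 CPM (0.80, SE 0.26).

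Of the more abundant members of the same group, Zmynd15, whose product is known in mice as a repressor of transcription in male germ cells, had 22074, 21716, 23549 and 21969 CPM in Ltb4r2-/- and 19748, 19003, 19695 and 17801 CPM in WT, a log2 fold change of 0.23 (SE 0.06, adjusted p = 0.463, edgeR). It overlaps Cxcl16, a macrophage chemokine, by 552 bp on the opposite strand, and Cxcl16 had means of 249 CPM in both genotypes. Rmi1, a subunit of the complex that dissolves DNA crossovers, had 1688 to 1959 against 1413 to 1578 CPM (0.29, SE 0.09) and overlaps Hnrnpk by 330 bp. Gm11696, an antisense transcript that overlaps 1700096J18Rik by 268 bp, had 2927 to 3217 against 2191 to 2681 CPM (0.28, SE 0.08). The antisense transcript 4930539J05Rik, which overlaps Ube2d3 by 198 bp, had 432, 367, 895 and 468 CPM against 314 to 354 CPM (0.69, SE 0.20), and 0.33 without Ltb4r2-/- replicate 3. For comparison, Actb had means of 180 and 151 CPM in the same libraries.

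Among the lower genes whose groups did not overlap, Tep1, Apex1, Mettl3 and Mphosph8 have been given above. Fer1l5, a member of the ferlin family of membrane proteins, had 182, 181, 138 and 144 CPM in Ltb4r2-/- and 228, 291, 258 and 201 CPM in WT (log2 fold change -0.60, SE 0.16, unadjusted p = 0.00132, adjusted p = 0.463, edgeR), and overlaps Lman2l by 103 bp on the opposite strand. In M0 it had 1429 CPM in both genotypes, and the interaction of M1 against M0 was -0.62 (SE 0.18, adjusted p = 0.574). Asap2, a GTPase-activating protein for Arf, had 64.1 to 91.6 against 102 to 156 CPM (-0.66, SE 0.20), and overlaps Itgb1bp1 by 402 bp. Cfap45, an axonemal protein that overlaps 4933439K11Rik by 3 bp, had 62.0 to 79.0 against 90.0 to 138 CPM (-0.63, SE 0.20). A930015D03Rik, antisense to the class I gene H2-T22 over 1003 bp, had 147 to 172 against 200 to 298 CPM (-0.54, SE 0.15), while H2-T22 itself had 0.06 (SE 0.12). Pom121, a membrane anchor of the nuclear pore that overlaps Nsun5 by 665 bp, had 26.3, 18.9, 20.6 and 22.1 CPM against 32.8, 74.9, 36.0 and 41.2 CPM. Its log2 fold change was -1.09 (SE 0.36), and -0.74 without WT replicate 2, the highest library. H2-D1, a classical class I molecule, had 3, 10, 11 and 8 counts against 17, 39, 12 and 14 (-1.13, SE 0.44), and -0.77 without WT replicate 2. The remaining ones of the 12 with the smallest p were small in size, with 1700113A16Rik at -0.30 (SE 0.11, overlapping Mef2d by 531 bp) and Pdap1 at -0.27 (SE 0.10, overlapping Arpc1b by 931 bp).

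Counts listed under marker genes of the response to LPS and IFN-γ were compared as well. For the reason of strand given above, they cannot show whether the response itself differed between the genotypes. Of 27 genes of the M1 and IFN-γ response 14 were tested, and none had an unadjusted p under 0.05, against 7.49% of all genes tested. Their log2 fold changes ran from -0.45 to 0.34 with a median of -0.04. Nos2, the inducible nitric oxide synthase, had 82.7, 143, 164 and 150 CPM in Ltb4r2-/- and 144, 165, 118 and 154 CPM in WT (-0.11, SE 0.20). Cxcl9 had 505 to 650 against 437 to 669 CPM (0.00, SE 0.13), Cxcl10, which overlaps Art3 by 133 bp, 69.2 to 90.2 against 49.2 to 81.8 CPM (0.34, SE 0.24) and the GTPase gene Gbp2, which overlaps Mir6381 by 24 bp, 179 to 275 against 220 to 291 CPM (-0.18, SE 0.16). The ranges of the genotypes overlapped for each of them. Il1b, which overlaps Il1bos by 25 bp, and Tnf, cytokines of this state, had at most 15 counts in a library and were not tested. If the opposite strand was counted, these low counts say nothing of their mRNA.

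In the type I interferon list 1 of 12 tested genes had an unadjusted p under 0.05, against 7.49% of all genes tested. Ifit2, which binds viral RNA, had 995, 869, 671 and 619 CPM in Ltb4r2-/- and 790, 395, 410 and 474 CPM in WT, so that WT replicate 1 lay among the Ltb4r2-/- libraries (log2 fold change 0.61, SE 0.19, unadjusted p = 0.00557, adjusted p = 0.463, edgeR). Without WT replicate 1 the value was 0.88 and the adjusted p = 0.0242. That library held the highest WT value of Ifit2, so leaving it out must widen the difference and is no separate support. Rsad2 (0.18, SE 0.20), Ifit1 (-0.04, SE 0.31) and Oas3 (-0.03, SE 0.24), of the same list, had p over 0.3. The median of the list was 0.00.

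Chemokines, their receptors and genes of adhesion and of the actin cytoskeleton were examined next, since they carry out migration. Of 19 chemokine ligands 3 were tested, and beside Ccl5 these were Ccl3 (0.18, SE 0.20) and Cxcl16 (0.00, SE 0.14). Of 20 chemoattractant receptors 2 were tested. Xcr1, the receptor of the chemokine XCL1 and a marker of cross-presenting dendritic cells, had 656, 673, 535 and 835 CPM in Ltb4r2-/- and 621, 373, 532 and 516 CPM in WT (0.40, SE 0.15, unadjusted p = 0.0159, adjusted p = 0.577, edgeR). The groups overlapped, and the other dendritic cell markers were too low to test. Its neighbour on chromosome 9, Fyco1 (chr9:123789500-123851899, against chr9:123852315-123862029 for Xcr1, both on the minus strand), an adaptor of vesicle transport, had 213 to 389 against 118 to 238 CPM (0.78, SE 0.22, unadjusted p = 0.00206, adjusted p = 0.463). Ccr2, the receptor that recruits monocytes, had at most 5 counts in a library.

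In the integrin and adhesion list 3 of 14 tested genes had an unadjusted p under 0.05, against 7.49% of all genes tested, with a median of -0.18 over the list. Itga5, the α5 subunit of the fibronectin receptor, had 10, 10, 8 and 7 counts in Ltb4r2-/- and 17, 20, 19 and 14 in WT, groups that did not overlap (log2 fold change -0.83, SE 0.36, adjusted p = 0.625, edgeR). Fermt3, the kindlin that activates integrins in blood cells, had 428 ± 70.1 against 346 ± 50.7 CPM, with overlapping groups (0.31, SE 0.14, and 0.19 without Ltb4r2-/- replicate 4), and overlaps Trpt1 by 89 bp on the opposite strand. Rap1b, a small GTPase that acts upstream of integrins, had 32.0, 39.6, 123 and 44.2 CPM against 28.0 to 36.0 CPM (0.92, SE 0.39), and 0.28 without Ltb4r2-/- replicate 3. Of 23 tested genes of actin and ruffling 1 had an unadjusted p under 0.05, Plek, the protein kinase C substrate pleckstrin (overlapping Cnrip1 by 199 bp), with 18.8, 10.3, 22.4 and 8.84 CPM against 55.8, 34.7, 16.0 and 39.4 CPM (-1.26, SE 0.44, adjusted p = 0.509). Only WT replicate 3 lay within the Ltb4r2-/- range of Plek. Log2 fold changes were negative for 16 of the 23, with a median of -0.09, beside 50.1% of all genes tested.

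At an unadjusted p under 0.05, 3 of 16 tested macrophage identity genes and 2 of 5 tested lipid genes were lower in Ltb4r2-/- and 0 higher, with Apoe in both lists, against 2.6% of all genes tested that were lower. Apoe, the lipid carrier, had 48.9, 44.8, 71.0 and 68.5 CPM in Ltb4r2-/- and 39.4, 227, 96.0 and 126 CPM in WT, a log2 fold change of -1.09 (SE 0.37, adjusted p = 0.492, edgeR). WT replicate 1 was the lowest of all 8 libraries and WT replicate 2 the highest, and without the latter the value was -0.58. Lyz2, macrophage lysozyme, had 52.6, 72.3, 37.4 and 61.9 CPM against 78.8, 150, 72.0 and 60.0 CPM (-0.70, SE 0.30), and -0.33 without WT replicate 2. Sqle, squalene epoxidase of sterol synthesis, had 69.6, 62.0, 43.0 and 44.2 CPM against 68.9, 87.3, 76.0 and 82.5 CPM (-0.52, SE 0.24, unadjusted p = 0.0463). Lgals3 was the remaining one. The median over the 16 macrophage identity genes tested was -0.12. Among 17 lysosome genes none had an unadjusted p under 0.05, and Ctsa, the lysosomal protease cathepsin A, had 1376, 4384, 1724 and 2919 CPM in WT and 1494 to 2147 CPM in Ltb4r2-/-. Its log2 fold change was -0.50 (SE 0.24, unadjusted p = 0.0558), and -0.13 without WT replicate 2. Pltp, a phospholipid transfer protein gene that overlaps Ctsa on the opposite strand by 495 bp, had 0.03 (SE 0.11).

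**Figure D4:**
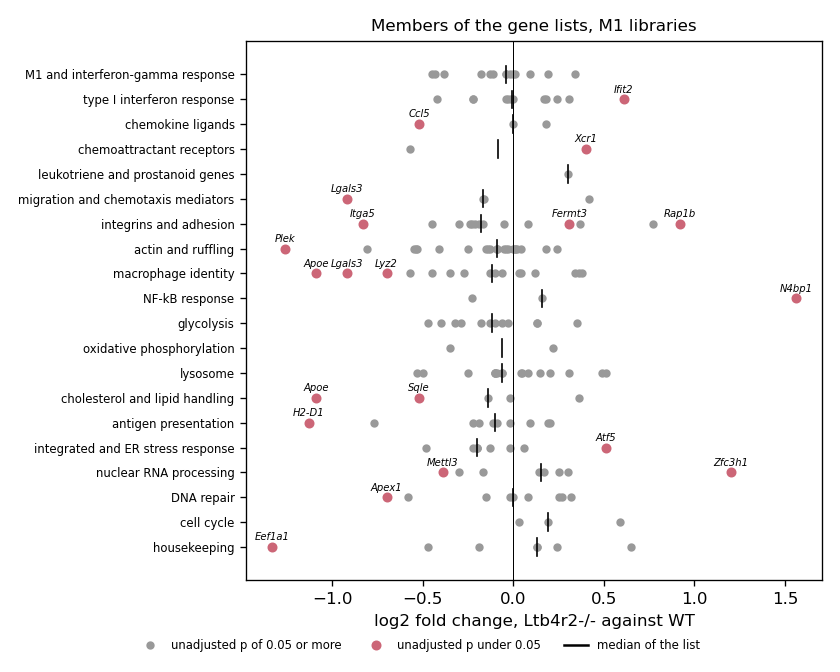
Log2 fold change of Ltb4r2-/- against WT in M1 (x axis) is shown for each tested member of 20 gene lists (rows), with the list's median as a black line and members at an unadjusted p under 0.05 in red and named. No list has a member past an adjusted p of 0.05, and the 14 genes of the M1 and IFN-γ response lie between -0.45 and 0.34.

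The shares in the remaining lists stand beside 7.49% of all genes tested. None of 12 glycolysis genes (median -0.11), 2 genes of oxidative phosphorylation and 3 cell cycle genes had an unadjusted p under 0.05. Nuclear RNA processing had Zfc3h1 and Mettl3, in opposite directions, among 8 tested, and DNA repair had Apex1 among 9. Antigen presentation had H2-D1 among 10 tested, and the stress response list had Atf5 among 9. Of 7 housekeeping genes Eef1a1, a translation elongation factor, had 12, 6, 6 and 4 counts in Ltb4r2-/- and 12, 32, 11 and 26 in WT (-1.33, SE 0.45, adjusted p = 0.484, edgeR). WT replicates 1 and 3 overlapped with the Ltb4r2-/- range on the CPM scale. In M0 and M2 Eef1a1 had 0.10 (SE 0.23) and 0.06 (SE 0.21), at 104 to 125 CPM.

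A share of the higher genes was carried by Ltb4r2-/- replicate 3. Of the 96 higher genes 57 had their highest value in that library, and in 27 it was over 1.5 times the next highest. N4bp1, an inhibitor of NF-kB signalling in macrophages, had 62.0, 49.9, 342 and 50.8 CPM in Ltb4r2-/- and 33.7 to 48.5 CPM in WT (log2 fold change 1.56, SE 0.51, adjusted p = 0.463, edgeR), and 0.33 without replicate 3. The phosphatidylinositol transfer protein gene Pitpna had 152, 148, 744 and 104 CPM against 96.0 to 125 CPM (1.40, SE 0.45), and 0.30 without it. Mrpl48, a mitochondrial ribosomal protein gene that overlaps Rab6a by 708 bp, had 207, 164, 729 and 126 CPM against 75.0 to 194 CPM (1.21, SE 0.42), and 0.32 without it. Basp1, a membrane-bound signalling protein gene, had 3600, 3066, 7766 and 2859 CPM against 2297 to 3053 CPM (0.66, SE 0.23), and 0.21 without it. Without that library 67 genes were higher, 45 of them among the 96, and 57 were lower, 32 of them among the 51. Of the 51 lower genes 22 had their highest value in WT replicate 2, in 6 of them by over 1.5 times, and without WT replicate 2 there were 39 lower genes, 29 of them shared. With both libraries left out 54 genes were higher and 45 lower, of which 34 and 21 were among those found with all 8. Counts under Tsix, an antisense transcript of the X inactivation centre, were 1191 to 1407 in 2 libraries of each genotype and 0 in the other 4. Their presence was thus balanced between the genotypes, and Ltb4r2-/- replicate 3 was one of those with them. They may be reads of Xist, as said above, and whether they follow the sex of the donors, which is not given, was not tested.

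**Figure D5:**
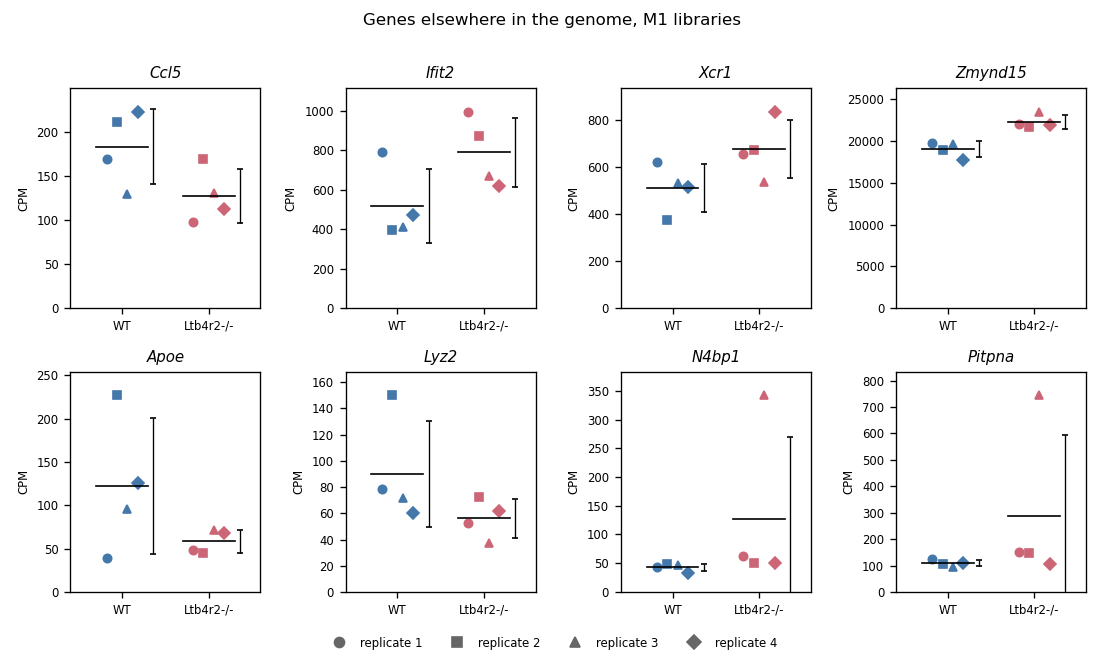
CPM in each M1 library (y axes from 0) is shown for 8 genes outside chromosome 14, WT in blue and Ltb4r2-/- in red, with a marker shape per replicate number, a line at the group mean and a bar of 1 SD beside it, cut at 0. Replicate 3 of Ltb4r2-/- alone is high for N4bp1 and Pitpna, and replicate 2 of WT is the highest library for Apoe and Lyz2. The groups overlap for Ccl5, Ifit2 and Xcr1 but not for Zmynd15.

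Whether a genotype difference in M1 was specific to that state was tested by interaction terms over all 24 libraries and 3047 genes. Against M0 the term passed an adjusted p of 0.05 in 1 gene (0.0328%), Tep1, and an unadjusted p of 0.05 in 141 genes (4.63%). Against M2 it passed the adjusted threshold in 0 genes by edgeR and by DESeq2, and an unadjusted p of 0.05 in 139 genes (4.56%). Neither unadjusted share is above the one that chance alone gives at that threshold. Genes named below for these terms were chosen for their small p, so their values are no separate support. Pom121 was among the leading genes of both, with an interaction of -1.37 (SE 0.35) against each state and adjusted p of 0.363 and 0.383. It had 116 against 97.3 CPM in M0 and 182 against 151 CPM in M2, slightly higher in Ltb4r2-/- where it was lower in M1.

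Among the other leading genes of the interaction with M0, Rmdn1, a regulator of microtubule dynamics, had 1, 8, 4 and 2 counts in Ltb4r2-/- M1 and 10, 25, 10 and 21 in WT M1, beside 1485 and 1513 CPM in M0 (interaction -1.94, SE 0.49, adjusted p = 0.363). Vgll4, a cofactor that competes with YAP for TEAD factors, had 4, 0, 4 and 4 counts against 10, 13, 8 and 15, beside 92.6 and 76.1 CPM in M0 (-2.05, SE 0.56, adjusted p = 0.541). Oraov1 was lower in Ltb4r2-/- in M0 (861 against 1621 CPM, log2 fold change -0.91, SE 0.25). In M1 it was slightly higher, with overlapping groups (6630 against 5684 CPM, 0.22, SE 0.11). Its interaction was 1.11 (SE 0.31, adjusted p = 0.541), and it overlaps Ccnd1 by 1100 bp on the opposite strand.

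Against M2, the transcripts with the smallest p included Nsmaf, Rfx5, Lrrc51 and Atf5. Nsmaf, an adaptor of TNF receptor signalling to sphingomyelinase (overlapping Sdcbp by 78 bp), had 28.2, 25.8, 31.8 and 39.8 CPM in Ltb4r2-/- M1 and 13.1 to 18.7 CPM in WT M1, but 28.0 against 49.1 CPM in M2 (interaction 1.84, SE 0.44, adjusted p = 0.383, edgeR). Rfx5, which drives MHC class II genes and overlaps B230398E01Rik by 1471 bp, had 44.2 to 60.2 against 31.2 to 36.0 CPM in M1 and 46.8 against 77.5 CPM in M2 (1.34, SE 0.35, adjusted p = 0.383). Both had opposite directions in the M1 and M2 states, without passing the adjusted threshold. A gene picked for a small p of this term tends to show that, so it is no separate result. Lrrc51 went the other way, with 49.8 against 75.0 CPM in M1 and 235 against 179 CPM in M2 (-0.99, SE 0.25, adjusted p = 0.383), and overlaps Lamtor1 by 600 bp on the opposite strand. Atf5 had 639 against 674 CPM in M2, and its interaction was 0.58 (SE 0.17, adjusted p = 0.624).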

How the data were processed

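RNA of 24 macrophage cultures was sequenced from a strand-specific polyA mRNA kit, and the 8 M1 libraries were compared here. The authors used cutadapt for trimming, STAR for alignment to mm10 and HTSeq for counting, and the deposited raw counts per gene were analysed. Tool versions and the HTSeq strand setting are not given in the sources used here. Antisense RNAs were compared with the coding genes they overlap (GENCODE exons, pairs with 80 counts or more), and the counts follow the pattern of the opposite strand. The deposited log2 values, RLE-normalized by the authors with DESeq2, matched the counts up to one factor per library in all 24 columns and entered no test. The study reported each point as an animal of its own, but the labels do not tie libraries to animals, so p-values measure the spread between these libraries.

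Of 24557 genes, 24209 were matched to GENCODE M21 (GRCm38). Symbols that had been turned into dates (26) were put back. Libraries held 465765 to 729580 counts. Low genes were removed with filterByExpr at a count of 10 and a total of 15, TMM factors were applied, and the quasi-likelihood test of edgeR gave p-values, adjusted by Benjamini-Hochberg (edgeR 4.0.16, limma 3.58.1, R 4.3.3). The fit was tested on simulated data. Standard errors are the absolute log2 fold change over the square root of F. CPM values use the TMM factors of one state and its 8 libraries. Interactions used 1 fit of 24 libraries. For single genes, mean CPM was compared over all 70 arrangements of the labels in a two-sided exact permutation test.

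The comparison, the 27 gene lists and the rules for naming genes were chosen with earlier results of these data known. Named were Ltb4r2, Ltb4r1, Ccl5 and Lgals3, genes past the adjusted threshold, the 12 of smallest p in each direction among those without overlap, those at p under 0.05 within 10 Mb of Ltb4r2 (with separated genes of at least 15 counts outside the fit), the leading members of lists and interactions, and opposite-strand partners. Nos2, Cxcl9, Gbp2, Il1b, Tnf, Pitpna, Mrpl48, Basp1, Fyco1, Ctsa, Adgre1, Ccr2, Actb, Pnp, Ccl3 and others shown beside them were named after their values were seen. Lists carry no test. Alternatives were RLE factors, total counts, a filter at a mean of 50 counts, none at all, DESeq2 1.42.0, all 24 libraries, a replicate block, each library left out, and 5 and 20 Mb. Tsix detection as a covariate, leaving out Ltb4r2-/- replicate 3 with WT replicate 2, and genotype with replicate number as a unit were chosen after seeing the data.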

Additional observations from a re-analysis of the deposited data

Results flagged for a closer look

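In a check of 76 named genes in each genotype (151 groups of 4 libraries with any count), a library stood far from the others of its group 12 times. Chance gives about 1 in 20 groups, and since some of these genes were named because one library was high, the number says nothing beyond that choice. Ltb4r2-/- replicate 3 was highest for Pitpna (744 CPM), Mrpl48 (729 CPM), Basp1 (7766 CPM), N4bp1 (342 CPM) and Rap1b (123 CPM), and held the only counts of Ltb4r2 (3.74 CPM). WT replicate 2 was highest for H2-D1 (54.1 CPM), WT replicate 3 for Itga5 (38 CPM) and WT replicate 4 for Parp2 (3.75 CPM, 2 counts) and Vgll4 (28.1 CPM). Ltb4r2-/- replicate 2 was lowest for Vgll4 (0 CPM) and Arhgef40 (24.1 CPM). What sets these libraries apart was not tested. The difference of Tep1 between genotypes was not the same in M1 and M0, by 1.43 on the log2 scale (M1 minus M0, edgeR interaction term, adjusted p = 7.41e-06).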

How the results depend on the processing

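Tep1 kept its direction and an adjusted p under 0.05 under every alternative in which it was tested. The count of genes past that threshold was 23 without a filter on low counts, 2 with all 24 libraries in one fit (Parp2 and Tep1), and 1 to 2 with a library left out (2 without WT replicate 1, Ifit2 and Tep1). At an unadjusted p under 0.05 the 147 genes became 424 without a filter (240 higher, 184 lower) and 75 at a mean of at least 50 counts (40 higher). Leaving out a library gave 56 (without WT replicate 4) to 113 (without WT replicate 1) higher and 39 (without WT replicate 2) to 81 (without WT replicate 1) lower genes. With both Ltb4r2-/- replicate 3 and WT replicate 2 left out 54 were higher, and with all 24 libraries 119 were lower. Other settings stayed within 1.5 times, with 108 higher and 72 lower by DESeq2. Within 10 Mb of Ltb4r2 the 10 genes became 20 without a filter and 5 at a mean of 50 counts. For the interactions the counts without a filter were 10 against M0 and 3 against M2, and leaving out a library gave 1 to 2 against M0 (2 without WT replicate 4). Of 1415 alternatives of 88 values of named genes, interactions included, 33 changed direction, in 13 genes, none of them past the adjusted threshold where it did. With a library left out their log2 fold changes ran over these ranges, Nos2 (-0.23 to 0.06), Ccl3 (-0.04 to 0.31), Cxcl9 (-0.11 to 0.08), Trim13 (-0.01 to 0.49), Rsad2 (-0.01 to 0.31), Ifit1 (-0.31 to 0.14), Oas3 (-0.23 to 0.08), Cxcl16 (-0.10 to 0.11), Tox4 (-0.02 to 0.15), Arhgef40 (-0.20 to 0.19), H2-T22 (-0.03 to 0.11), Pltp (-0.06 to 0.09) and Sdr39u1 (-0.14 to 0.01). Cxcl9 was also at -0.00 with total counts and -0.01 without a filter and with all 24 libraries, and with both Ltb4r2-/- replicate 3 and WT replicate 2 left out Trim13 was at -0.06, Rsad2 at -0.07, Oas3 at 0.19, H2-T22 at -0.02 and Pltp, in its own direction, at 0.12. Without a filter the interaction with M0 also passed the adjusted threshold for Parp2 (3.62), Rmdn1 (-1.96) and Oraov1 (1.09). Parp2 was named for its separation in M1, so a threshold it passed in any of these fits is no separate support. The causes of these changes between settings were not tested.

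Same-numbered libraries of the genotypes showed only weak correlations of their deviations (-0.0351, -0.0854, 0.129 and 0.071 for numbers 1 to 4). These values neither show nor exclude that the number pairs them. With a replicate block 1 gene passed the adjusted threshold, with 89 higher and 44 lower at an unadjusted p under 0.05, and it moved no other call by over 1.5 times. Of the Ltb4r2-/- libraries, replicates 3 and 4 correlated best with the WT library of their own number and replicates 1 and 2 did not. Depth limits these results, since the median standard error was 0.37 for genes under 50 counts.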
